A study of Mus musculus with 180 samples.

Results

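The spleens of 4 wild-type mice given lipopolysaccharide (LPS) were compared with the spleens of 4 wild-type mice given phosphate-buffered saline (PBS), which makes 8 of the 180 libraries of a series that sampled 15 tissues of 12 mice. All 8 animals were female C57BL/6J mice, 6 weeks old, and were perfused through the heart with PBS and EDTA before the organs were taken at the 12-hour time point. Mice 1 to 4 received PBS and mice 5 to 8 received LPS at 5 mg/kg. Spleens of mice 9 to 12, of the TNF-deficient strain B6.129S-Tnftm1Gkl/J given LPS, entered the main fit through the shared estimate of the spread. They also counted in the choice of genes tested and in the slope of the pancreatic covariate described below. The members of the comparison are all genes of the spleen table, 13820 in number, of which 13421 had enough signal to be tested. Each animal gave 1 spleen library, so n = 4 in each group, and no PBS animal is paired with an LPS animal.

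LPS is a component of the outer membrane of Gram-negative bacteria. It binds CD14 and the receptor complex of TLR4 and MD-2, which signals through MYD88 to NF-kB and through TRIF to interferon regulatory factors, so that inflammatory cytokines, chemokines and interferons are made. The spleen filters blood. Its red pulp holds macrophages that take up old red cells and recycle their iron, and its white pulp holds B cell follicles and T cell zones with a marginal zone of specialised B cells and macrophages between them and the red pulp.

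The libraries are oligo(dT)-primed, so a value reports the 3′ end of polyadenylated transcripts, and values of different genes are not compared as levels. The deposited unit is a signal scaled by the authors, from which whole counts were recovered. The 8 libraries held 433575 to 912730 counts over 12559 to 13118 genes above 0, and 1 count stood for a signal of 0.889 to 1.80. A log2 change is LPS minus PBS on the scale of log2(signal + 1), which understates changes of genes with low signal, and is given with its standard error (SE) and the adjusted p of limma's moderated test (Benjamini-Hochberg over all spleen genes tested). A change is said to have passed below an adjusted p of 0.05. The strand setting of the counting is, in the sources used here, not given, so reads of Irf7, Ciita, Mt2, Timp1, Dusp1, Tap1, Stat3, Plvap, Gpr183, Fkbp5, Pfkfb3, Ccnd2 and Irf5 cannot be told from those of a table gene that overlaps them on the opposite strand.

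The check of the labelled tissue rests on Cd79a and Slc40a1 alone, and both had signal in every library. Cd79a, part of the B cell receptor, lay at 516 to 588 with PBS and 139 to 291 with LPS. Slc40a1, the iron exporter of red pulp macrophages, lay at 228, 236, 222 and 219 in the PBS libraries and at 13.3 to 24.4 with LPS. Pancreatic acinar enzymes stood apart. Summed over 26 of these genes the signal was 172, 191, 192 and 183 with PBS and 1109.8, 994, 295 and 380.5 with LPS, so mice 5 and 6 lay far above the other libraries, and mice 7 and 8 also lay above all PBS libraries. At most 0.137% of a library's signal came from these genes. They and the islet genes (31 tested genes in all) are set apart from every count that follows. The amylase genes Amy2a3 and Amy2a4, which are on neither list, carry the same values as Amy2a5 in every library (37.3, 35.4, 7.85 and 12.6 in the LPS libraries, listed at 0 in the PBS libraries), so they are set apart from the description too. That choice was made after their values were seen, and both remain in the counts. Erythroid genes varied inside the PBS group, with summed signals of 11096, 11711, 23276 and 43410.4 with PBS and 16491, 12395, 22143 and 18489.7 with LPS, and mouse 4 lay above all others.

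**Figure D1:**
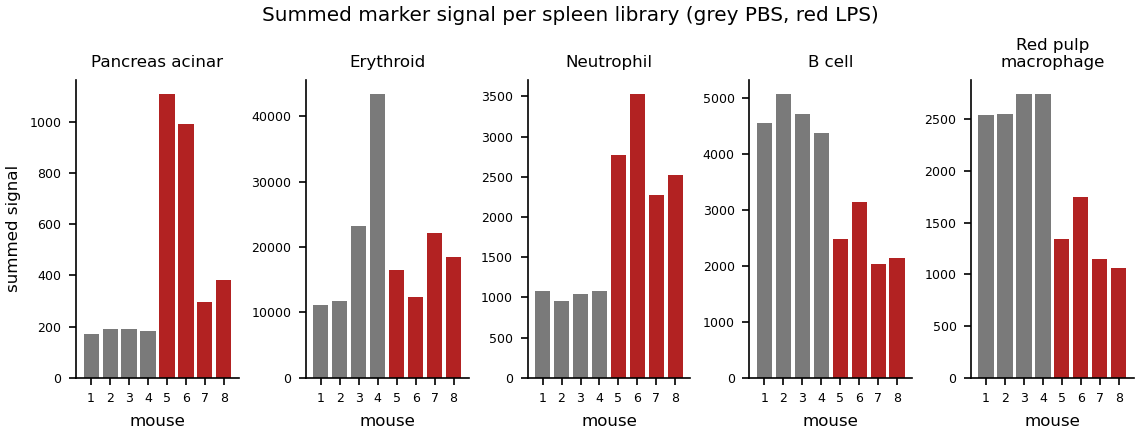
Summed signal (vertical axis, the authors' scaled unit, linear from 0) of 5 marker lists in each spleen library, for PBS mice 1 to 4 in grey and LPS mice 5 to 8 in red. Pancreatic acinar signal is highest in mice 5 and 6 (1110 and 994), erythroid signal in mouse 4 (43410), neutrophil signal is 958 to 1081 with PBS and 2279.8 to 3532 with LPS, and the sums of B cell and red pulp macrophage genes are lower in all LPS libraries than in all PBS libraries.

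Of 13390 genes tested, 1060 were higher (7.92%) and 1040 lower (7.77%) with LPS at an adjusted p below 0.05, and the median log2 change over all tested genes was -0.03. Without mice 5 and 6 the counts were 878 higher and 1153 lower. With the summed pancreatic signal as a covariate, which itself separates the groups, 580 were higher. All 4 LPS libraries lay above all 4 PBS libraries for 8.17% of the genes and below them for 8.71%. Because these are bulk libraries, fewer cells of a type and less of a transcript per cell cannot be told apart in any result that follows.

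The largest changes took in a protease inhibitor, chemokines, feedback inhibitors and an iron transporter. Serpina3f, a serine protease inhibitor gene at chr12:104214544-104221129 (GRCm38, as all positions here), had signals of 5.91, 13.4, 17.2 and 12.6 with PBS and 201, 56.2, 239 and 254 with LPS. Its mean rose 15.3-fold, from 12.3 ± 4.69 to 187 ± 90.3 (SD, n = 4; log2 change 3.70, SE 0.30, adjusted p = 3.8e-11), and mouse 6 was far below the other LPS mice though above every PBS mouse. Slc40a1 at chr1:45908068-45926523, which encodes ferroportin, the only known cellular iron exporter, had the largest fall of the genes eligible for naming, to 13.3, 24.4, 18.8 and 21.6 in the LPS libraries (log2 change -3.50, SE 0.20, adjusted p = 6.2e-15). The groups were 11.6-fold apart in their means and the PBS libraries lay within a narrow range. Il1rn, the interleukin-1 receptor antagonist, and Acod1, the enzyme that makes itaconate, rose by 3.20 and 3.22 on the log2 scale. Ramp3, a co-receptor of calcitonin-family receptors, and Fpr2, a formyl peptide receptor, rose by 3.24 and 2.71. Among the genes that fell most were Ccr3, the eotaxin receptor (-3.25), Fcer2a, the low-affinity IgE receptor of B cells (-3.22), Star, a mitochondrial cholesterol carrier (-2.93), Gdf10, a growth factor of the BMP family (-3.27), and Tcf21, a transcription factor of splenic mesenchyme (-2.79). For each of these genes the groups did not overlap, which the rule for naming required.

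**Figure D2:**
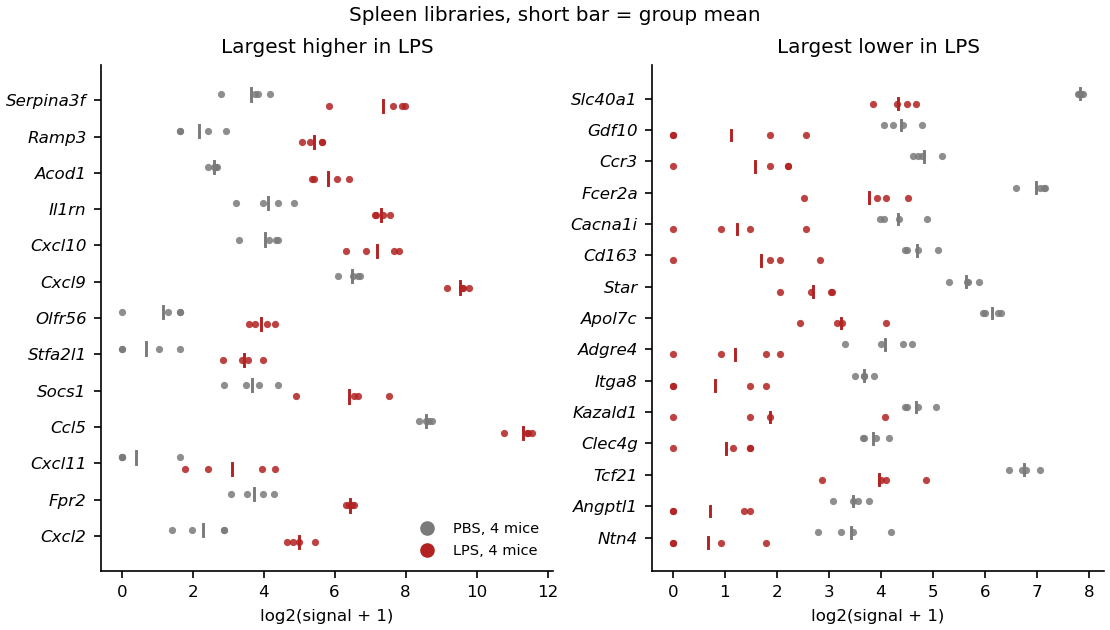
Signal of each spleen library on a log2(signal + 1) axis for the 13 genes with the largest rise (left, the 2 amylase genes left out) and the 15 with the largest fall (right). Points are single mice (PBS grey, LPS red) and short bars are group means. Slc40a1 lies lower in each LPS library than in any PBS library, and Serpina3f is lowest in mouse 6 among the LPS mice.

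Promoter sequence is shown for 10 of the genes whose lists moved together, because each holds a motif known from promoters of its gene family. Sequences are from RefSeq, assembly GRCm38.p6, and each is a stretch of 100 of the 250 bases upstream of the RefSeq start, 5′ to 3′ on the gene's strand, with the motif in capitals. The interferon-stimulated response element core was searched as GAAANNGAAA on both strands of the 250 bases upstream. It was present in 936 of 27025 promoters of the table (3.46%), in 361 of 10057 promoters of tested genes (3.59%), in 67 of 838 genes that rose (8%, pancreatic genes included), in 10 of 26 matched interferon-stimulated genes and in 9 of 10 matched genes of the GTPase families described next. Overlapping matches run together in the capitals of Irgm1 and Isg15, and of Cxcl2 for the motif described after it. The RefSeq start of Gbp2 lies inside the gene model whose position is given below, so its motif falls within that model.
Gbp2 (chr3:142620559-142620658, + strand): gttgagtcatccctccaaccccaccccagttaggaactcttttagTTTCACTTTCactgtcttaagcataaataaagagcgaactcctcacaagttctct
Irgm1 (chr11:48871421-48871520, - strand): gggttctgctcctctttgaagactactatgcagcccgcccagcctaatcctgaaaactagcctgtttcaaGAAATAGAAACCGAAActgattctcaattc
Ifit1 (chr19:34640759-34640858, + strand): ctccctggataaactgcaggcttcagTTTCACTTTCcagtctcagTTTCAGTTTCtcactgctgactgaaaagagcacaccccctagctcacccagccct
Isg15 (chr4:156200830-156200929, - strand): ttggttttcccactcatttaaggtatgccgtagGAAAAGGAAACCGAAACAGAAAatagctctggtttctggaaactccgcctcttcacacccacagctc
Cxcl10 (chr5:92349040-92349139, - strand): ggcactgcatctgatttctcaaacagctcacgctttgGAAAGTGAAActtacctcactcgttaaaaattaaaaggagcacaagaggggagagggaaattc

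The kappa B motif, named for NF-kB, was present in 2225 of 27025 promoters (8.23%), in 1092 of 10057 of tested genes (10.9%), in 12.9% of matched genes that rose and 12.5% of those that fell, in 8 of 11 matched NF-kB subunit and feedback genes and in 7 of 16 matched genes of MHC class I presentation. The windows of 3 genes that rose are shown.
Nfkbia (chr12:55492648-55492747, - strand): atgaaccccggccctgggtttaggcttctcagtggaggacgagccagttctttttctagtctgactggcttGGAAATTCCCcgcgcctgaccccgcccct
Tnfaip3 (chr10:19015411-19015510, - strand): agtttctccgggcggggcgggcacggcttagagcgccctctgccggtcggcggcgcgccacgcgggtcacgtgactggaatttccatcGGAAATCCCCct
Cxcl2 (chr5:90903758-90903857, + strand): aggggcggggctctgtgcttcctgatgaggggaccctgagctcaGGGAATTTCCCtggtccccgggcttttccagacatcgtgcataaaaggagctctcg

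The Y box of MHC class II promoters, searched as CTGATTGG on both strands, was present in 1198 of 27025 promoters (4.43%), in 567 of 10057 of tested genes (5.64%), in 5.28% of matched genes that fell and 6.92% of those that rose, in 3 of 7 matched MHC class II genes and in 5 of 16 of MHC class I presentation. The windows of 2 genes that fell are shown. A match describes these letters only and is neither a bound site nor a cause.
H2-Aa (chr17:34287824-34287923, - strand): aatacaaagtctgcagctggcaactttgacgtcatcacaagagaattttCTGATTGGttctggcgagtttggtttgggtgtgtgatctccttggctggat
H2-Eb1 (chr17:34305759-34305858, + strand): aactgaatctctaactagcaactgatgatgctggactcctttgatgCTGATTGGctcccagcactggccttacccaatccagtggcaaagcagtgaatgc

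Genes known to be induced by type I interferon rose as a group. Of 38 tested, 34 were higher and none lower, against 7.92% higher over all genes, and the list's median log2 change was 1.30. Oasl1, an antiviral protein of the oligoadenylate synthetase family, had signals of 23.7, 21.8, 25.8 and 20.0 with PBS and 129.7, 132, 198 and 146 with LPS (log2 change 2.66, SE 0.15, adjusted p = 8.6e-15). Mx1, an antiviral GTPase, had 31.1, 16.7, 20.4 and 27.3 with PBS and 115, 169.9, 133 and 164 with LPS (log2 change 2.58, SE 0.17, adjusted p = 5.0e-13). In both genes every LPS library lay well above every PBS library. Zbp1, a sensor of Z-form nucleic acid at chr2:173206612-173218923, rose by 2.49, and Irf7, the transcription factor that amplifies interferon production, by 2.26. Ifit1 and Isg15, whose promoters are shown above, had signals of 32.5, 23.4, 22.6 and 25.2 with PBS and 89.7, 178, 87.9 and 133 with LPS and of 72.5, 56.9, 66.6 and 82.0 with PBS and 336, 286, 262 and 236 with LPS, with log2 changes of 2.15 and 2.00. The 4 members that did not pass were Sp100, Ifi27l2a, Samd9l and Herc6, with log2 changes of -0.21, 0.03, 0.12 and 0.57. Herc6 passed as higher without mouse 1 or 8 (adjusted p = 0.0353 and 0.0453), and Sp100 as lower without mouse 6 (adjusted p = 0.0429), without mice 5 and 6 (-0.55, adjusted p = 0.00415) and with the pancreatic covariate (-0.71, adjusted p = 0.0157). The summed signal was 2243, 2348, 2520.5 and 2289 with PBS and 5035, 5993, 4309.9 and 4935 with LPS, highest in mouse 6. With pancreatic signal as a covariate 20 members were higher and 2 lower.

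The guanylate-binding proteins and immunity-related GTPases, which are induced mainly by interferon gamma and act on vacuoles that hold pathogens, also rose together. Of 17 tested, 15 were higher and none lower, with a median log2 change of 1.57. Gbp2 at chr3:142620602-142638008 had signals of 82.8, 111, 92.4 and 87.3 with PBS and 574, 321, 652 and 586 with LPS (log2 change 2.46, SE 0.15, adjusted p = 1.9e-14). Mouse 6 was the lowest LPS mouse for Gbp2 and for the list's sum, which was 858, 979.8, 859 and 797 with PBS and 3123, 2169, 3033 and 3136 with LPS, whereas it was the highest for interferon-stimulated genes. Irgm1, a regulator of the family, had 66.5, 104, 74.1 and 75.7 with PBS and 257, 220.0, 272 and 252 with LPS (log2 change 1.65, SE 0.12, adjusted p = 7.1e-12). Gbp5 and Gbp6 rose by 1.99 and 2.00, and Ifi47 and Igtp by 1.78 and 1.57. Gbp8 and Gbp11 did not pass (-0.19 and 0.84). With the pancreatic covariate 14 members were higher and Gbp8 passed as lower (-1.02, adjusted p = 0.0299). Members of these families are near-identical in places, so reads may be divided among them, and the gene model of Ifi47 overlaps Olfr56 on the same strand. Those of Gbp6, Gbp8, Igtp, Irf9, Fkbp5 and Pfkfb3 also overlap another gene of the table on the same strand.

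MHC class I presentation followed with smaller changes. Of 19 tested members, 16 were higher and none lower, with a median log2 change of 0.57. Nlrc5, the transactivator of class I genes, had signals of 87.2, 82.1, 78.4 and 71.5 with PBS and 169.7, 169, 209 and 242 with LPS (log2 change 1.28, SE 0.14, adjusted p = 1.1e-08), and Tap1, a subunit of the peptide transporter, had 152, 169, 141 and 129 with PBS and 326, 241, 466 and 404 with LPS (log2 change 1.24, SE 0.14, adjusted p = 2.9e-08). The groups did not overlap for either gene. B2m, the class I light chain, changed less (0.30, with signals of 3307 to 3707 with PBS and 3774 to 4655 with LPS), and H2-D1, a heavy chain, did not pass (0.25, adjusted p = 0.052, but 0.0157 without mouse 8 and 0.0499 without mouse 1). The count was 11 without mice 5 and 6 and 7 with the pancreatic covariate.

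Of the regulators of interferon signalling, Irf1 rose by 1.28, and Stat2 and Stat3 by 0.68 and 0.73. The feedback inhibitors Socs1 and Socs3 had signals of 10.4, 20.1, 6.44 and 13.7 with PBS and 92.4, 29.3, 184 and 101 with LPS and of 29.6, 16.7, 18.3 and 29.4 with PBS and 126, 77.0, 173 and 139 with LPS, and rose by 2.75 and 2.39. Mouse 6 was again the lowest LPS mouse for both. In all, 8 of 22 tested IRF, STAT and SOCS genes were higher and 1 lower, against 7.92% and 7.77% over all genes. Irf8, Irf9 and Irf5 did not pass, with log2 changes of -0.01, -0.21 and -0.14.

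Chemokine transcripts rose in 15 of 24 tested genes and fell in 3, and the median log2 change was 1.47. Cxcl9 at chr5:92321347-92328079, a ligand of CXCR3 on activated T cells and NK cells, had signals of 101, 90.4, 104 and 67.3 with PBS and 785, 577, 763 and 882 with LPS and rose 8.30-fold in the mean (log2 change 3.04, SE 0.13, adjusted p = 1.2e-17). Ccl5 at chr11:83525778-83530518, which attracts T cells and monocytes, had 329.7, 400.3, 379 and 429 with PBS and 2747, 1750.5, 2815 and 3026 with LPS (log2 change 2.72, SE 0.12, adjusted p = 1.2e-17). Both genes were lowest in mouse 6 among LPS mice and well above every PBS mouse. Cxcl10, another CXCR3 ligand, had 8.87, 16.7, 19.3 and 20.0 with PBS and 117, 79.5, 226 and 204 with LPS (log2 change 3.13, SE 0.24, adjusted p = 1.6e-11). Its gene model overlaps Art3 on the opposite strand. The monocyte attractants Ccl2 and Ccl7 rose by 2.60 and 2.46, and the neutrophil attractants Cxcl1 and Cxcl2 by 2.16 and 2.69.

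The chemokines that fell were those of resident stroma that place lymphocytes. Ccl21a, a ligand of CCR7 made by T zone stroma, had signals of 282, 261, 238 and 279.7 with PBS and 102, 78.2, 75.4 and 86.6 with LPS (log2 change -1.63, SE 0.13, adjusted p = 3.5e-11), and Cxcl12, the CXCR4 ligand, had 405, 382, 374 and 537 with PBS and 249.7, 229.8, 247 and 200.2 with LPS (log2 change -0.86, SE 0.11, adjusted p = 5.0e-07). Ccl19 was the third, at -0.44 (adjusted p = 0.029), and its adjusted p was 0.0737, 0.0755, 0.0658 and 0.0906 without mouse 1, 2, 6 or 7, with log2 changes of -0.38 to -0.41. Cxcl13, the follicular chemokine that attracts B cells through CXCR5, moved the other way, with 214, 216, 248 and 202 with PBS and 593, 645, 462 and 451 with LPS (log2 change 1.27, SE 0.12, adjusted p = 1.8e-09). Ccl21a is one of several near-identical copies in the mouse genome, so its reads may be divided among them. Among receptors, Ccr7 rose by 1.22 (184 to 224 with PBS and 402 to 589 with LPS). S1pr1 and S1pr4, sphingosine phosphate receptors, of which S1pr1 guides lymphocyte egress, fell (log2 changes -0.68 and -1.22), as did Gpr183, which positions B cells and dendritic cells (-1.14).

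Cytokine transcripts were mostly low. Of 17 tested, 6 rose and 3 fell. Il1b had signals of 19.2, 20.1, 10.7 and 13.7 with PBS and 59.5, 67.2, 42.4 and 57.7 with LPS (log2 change 1.79, SE 0.21, adjusted p = 6.0e-08), with no overlap between groups. Il1rn, its antagonist, at chr2:24336853-24351494, had 14.8, 8.37, 27.9 and 20.0 with PBS and 144, 139, 188 and 164 with LPS (log2 change 3.20, SE 0.21, adjusted p = 2.2e-13). Il6 was listed at 0 in 3 PBS libraries and had 4.44, 2.44, 12.6 and 18 in the LPS libraries. It passed (adjusted p = 3.2e-04), but its log2 change of 2.73 became 4.19 with a pseudocount of 0.25, since the PBS group held a single count. Tnf had 8.87, 18.4, 9.67 and 7.36 with PBS and 18.7, 13.4, 15.7 and 28.9 with LPS, the groups overlapped, and it did not pass (log2 change 0.76, adjusted p = 0.056). Its adjusted p was 0.0257 without mouse 6 and 0.0096 without mouse 2. Ltb, a lymphotoxin subunit of lymphocytes, fell (log2 change -2.05), from 253, 315, 252 and 279.7 to 92.4, 94.1, 48.7 and 43.3. Tgfb1 fell as well (-1.30).

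Among LPS sensing genes, 3 of 15 rose and 1 fell, against 7.92% higher and 7.77% lower over all genes. Cd14, which hands LPS to the receptor complex, had signals of 45.8, 48.6, 40.8 and 53.6 with PBS and 156, 132, 144 and 124 with LPS (log2 change 1.54, SE 0.16, adjusted p = 4.5e-09). The adaptor Myd88 rose by 1.02, and its gene model overlaps Acaa1a on the opposite strand. Tlr4 itself, with 10.0 to 14.0 with PBS and 1.57 to 11 with LPS, did not pass (-0.88, adjusted p = 0.12). It passed as lower without mice 5 and 6 (-1.40, adjusted p = 0.0303) and with the pancreatic covariate (-1.77, adjusted p = 0.0398). Of 14 NF-kB subunits and feedback inhibitors, 8 rose and 1 fell. Nfkbia, the inhibitor IkB-alpha, had 237, 223, 250.2 and 263 with PBS and 462, 416, 479 and 485 with LPS (log2 change 0.92, SE 0.10, adjusted p = 9.3e-09), and Tnfaip3, the ubiquitin-editing inhibitor A20, had 39.9, 48.6, 66.6 and 41.0 with PBS and 142, 100.2, 162 and 132 with LPS (log2 change 1.44, SE 0.16, adjusted p = 4.4e-08). Nfkbiz and Bcl3, atypical IkB proteins, rose by 1.5 and 1.16. The subunits Rela and Rel did not pass (0.19 and 0.15). Nfkb1 was the member that fell (-0.50, adjusted p = 0.0059), and it did not pass with the pancreatic covariate (-0.28, adjusted p = 0.44) or without mice 5 and 6 (-0.39, adjusted p = 0.0624).

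**Figure D3:**
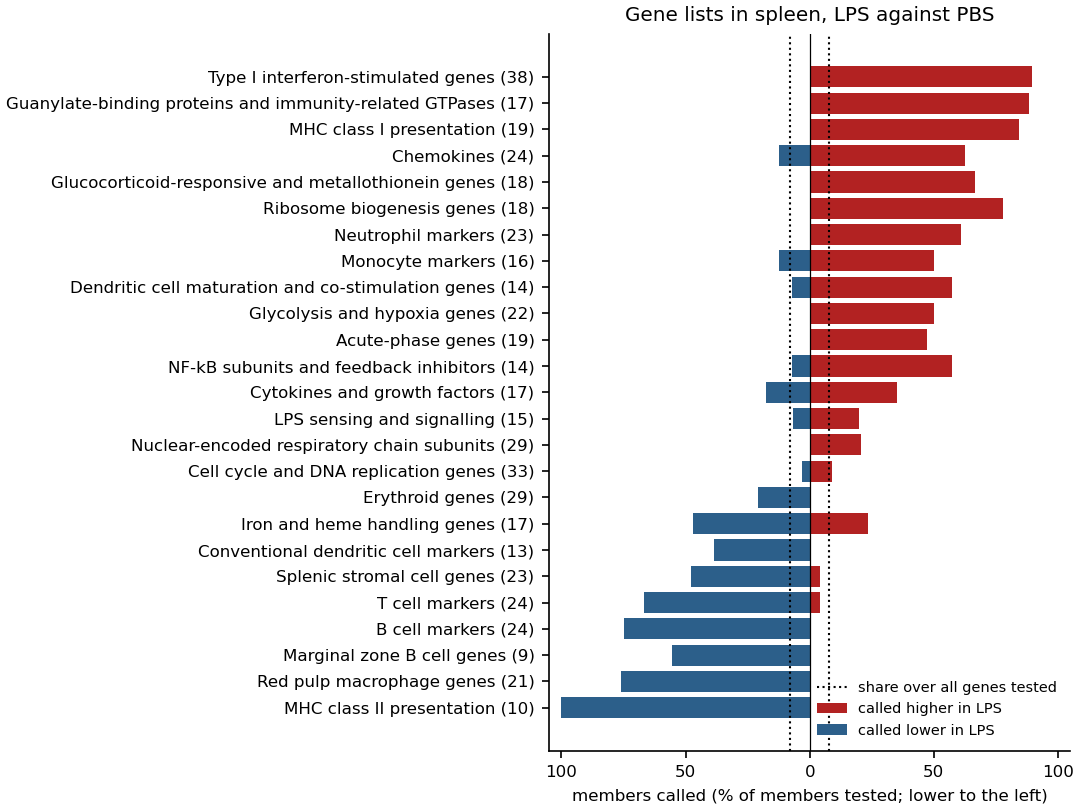
Share of tested members called higher (red, right) or lower (blue, left) at an adjusted p below 0.05 for 25 gene lists, in percent of members tested, with the number tested in brackets and dotted lines at the shares over all genes (7.92% higher, 7.77% lower). All 10 class II genes are lower, 34 of 38 interferon-stimulated genes are higher, and the cell cycle list lies near the dotted lines.

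Neutrophil markers rose in 14 of 23 tested genes and fell in none, with a median log2 change of 1.00. S100a8 and S100a9, which form calprotectin, had signals of 127, 134, 149 and 159.8 with PBS and 368, 549, 245 and 328 with LPS and of 309, 211, 244 and 281 with PBS and 686, 1089, 477 and 573 with LPS, and rose by 1.32 and 1.38. Mouse 6 was highest for both. Il1r2, the decoy interleukin-1 receptor, and Mmp8, neutrophil collagenase, rose by 2.34 and 2.06. Lcn2 at chr2:32384633-32388252, lipocalin that binds bacterial iron carriers, had 253, 265, 272 and 250.3 with PBS and 981, 982, 966 and 972 with LPS (log2 change 1.90, SE 0.09, adjusted p = 5.8e-17), with the LPS libraries close together. The primary granule genes Elane and Mpo did not pass (-0.13 and -0.03), nor did Ly6g (0.67, with 0 to 3.35 with PBS and 0 to 8.56 with LPS) or Csf3r (0.18). The count of members that rose was 8 with the pancreatic covariate.

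Monocyte genes were mixed, with 8 of 16 higher and 2 lower. Fcgr4, an activating Fc receptor, had signals of 39.9, 51.9, 40.8 and 40.0 with PBS and 291, 238, 236 and 283 with LPS and rose 6.07-fold in the mean (log2 change 2.58, SE 0.13, adjusted p = 2.4e-16), and Ms4a6d rose by 2.44. Plac8 and Chil3 rose by 0.70 and 0.88. Lyz2, lysozyme of monocytes, macrophages and neutrophils, fell, with 2684, 2692, 2820.1 and 2556 with PBS and 1315, 1413, 969 and 1217 with LPS (log2 change -1.14, SE 0.10, adjusted p = 7.4e-11), and Ccr2, the receptor for CCL2, fell (log2 change -1.44). The number that rose was 4 with the pancreatic covariate.

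Genes of red pulp macrophages fell in 16 of 21 tested members and rose in none, with a median log2 change of -1.05 against -0.03 over all genes. Csf1r, the receptor for the macrophage growth factor, had signals of 294, 266, 334 and 318 with PBS and 62.2, 111, 48.7 and 52.3 with LPS (log2 change -2.20, SE 0.19, adjusted p = 1.0e-10). Mrc1, the mannose receptor, had 78.4, 51.9, 95.6 and 84.1 with PBS and 11.6, 13.4, 18.8 and 12.6 with LPS (log2 change -2.37, SE 0.26, adjusted p = 1.9e-08), and Cd163, the receptor for haptoglobin and haemoglobin, had 25.1, 21.8, 33.3 and 21 with PBS and 2.67, 6.11, 3.14 and 0 with LPS (log2 change -3.01, SE 0.50, adjusted p = 3.3e-05). No LPS library reached the PBS range for these 3 genes, which the rule for naming required of Cd163. Vcam1, an adhesion molecule also carried by these macrophages, fell (-1.40), as did Timd4, a phosphatidylserine receptor (-1.05). Other macrophage genes did not pass. Spic, the transcription factor of red pulp macrophages, had 44.4, 70.3, 58.0 and 53.6 with PBS and 65.8, 99.0, 34.5 and 54.1 with LPS (0.08, adjusted p = 0.85), and C1qb had 154 to 225 with PBS and 135 to 195 with LPS (-0.12, adjusted p = 0.63). The summed signal was 2542, 2549, 2745 and 2739 with PBS and 1346, 1743, 1149 and 1064 with LPS, highest among LPS mice in mouse 6. Of 5 marginal zone macrophage genes tested, 3 fell and 1 rose, with a median log2 change of -1.17. The gene that rose was Marco, a scavenger receptor of these cells. It had 130.1, 83.7, 129 and 108 with PBS and 253, 457, 148 and 195 with LPS (log2 change 1.11, SE 0.20, adjusted p = 1.0e-04). Cd209b, the lectin SIGN-R1 of the same cells, fell (log2 change -1.17). With the pancreatic covariate 2 of the 5 genes were lower, and neither Marco nor Cd209b passed. The change of Marco was then 0.55 (adjusted p = 0.25), and that of Cd209b was -1.28 (adjusted p = 0.11), no smaller than without it.

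Iron genes moved in both directions. The exporter gene Slc40a1 and the haemoglobin receptor gene Cd163 fell, as described above, and so did Trf, transferrin (-1.07), and Blvrb, a biliverdin reductase (-1.09). Of the ferritin chains, Fth1, the heavy chain with ferroxidase activity, rose, with 2545, 2663, 2795 and 2898 with PBS and 6685, 6232, 6426 and 5750.3 with LPS (log2 change 1.20, SE 0.08, adjusted p = 2.2e-13), and Ftl1, the light chain, fell, with 738, 801, 852 and 869 with PBS and 496, 532, 422 and 346 with LPS (log2 change -0.87, SE 0.10, adjusted p = 1.1e-07). Neither chain's groups overlapped. Tfrc, the transferrin receptor, with 15.1 to 59.9 with PBS and 20.4 to 43.3 with LPS, and Hamp, hepcidin, with 3.35 to 13.3 with PBS and 6.22 to 16.2 with LPS, did not pass (0.07 and 0.17). In all, 4 of 17 rose and 8 fell, and the number that fell was 5 without mouse 3, 5 or 8 and with DESeq2. Because Blvrb is also an erythroid gene, its PBS values of 69.5, 70.3, 90.2 and 166 include mouse 4, whose erythroid signal was high, and its part in that result was not tested.

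**Figure D4:**
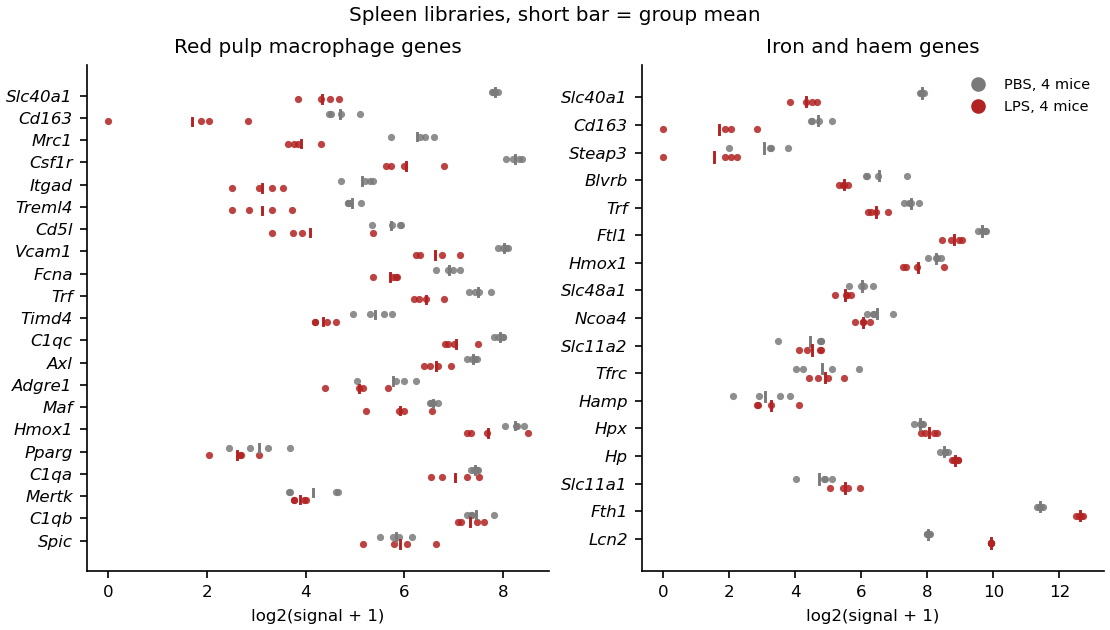
Signal of each spleen library on a log2(signal + 1) axis for 21 red pulp macrophage genes (left) and 17 iron and haem genes (right). Points are single mice (PBS grey, LPS red) and short bars are group means. Slc40a1, Cd163 and Mrc1 are lower in each LPS mouse than in each PBS mouse, Spic and C1qb overlap, and Fth1 and Lcn2 are higher in each LPS mouse.

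All 10 tested MHC class II presentation genes fell, with a median log2 change of -1.18. H2-Aa and H2-Eb1, chains of the class II molecules, had signals of 2529.9, 2643, 2488 and 2472 with PBS and 1151, 1363, 1043 and 943 with LPS and of 2073, 2040.1, 2009 and 1772 with PBS and 845, 1017, 895 and 745 with LPS, with log2 changes of -1.18 and -1.18. Ciita, the master regulator of class II transcription, had 76.9, 63.6, 75.2 and 62.0 with PBS and 27.5, 22, 28.3 and 25.2 with LPS (log2 change -1.40, SE 0.19, adjusted p = 1.5e-06), and H2-Ob, part of the H2-O complex that restrains peptide loading in B cells, fell most of the list (log2 change -2.0, SE 0.17, adjusted p = 1.0e-10). The groups did not overlap for any of these 4 genes. The invariant chain Cd74 fell (log2 change -1.18).

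Dendritic cell genes went in both directions. Markers of conventional dendritic cells fell in 5 of 13, among them Itgax, the integrin CD11c (-1.75), Naaa, an acid amidase (-2.34), and Wdfy4, needed for cross-presentation (-0.87), and none rose. Flt3 and Batf3 did not pass (-0.24 and -0.14). Genes that rise as dendritic cells mature were higher in 8 of 14 and lower in 1. Cd274, the ligand PD-L1, had signals of 48.8, 55.3, 54.8 and 42.1 with PBS and 175, 132, 239 and 213 with LPS (log2 change 1.87, SE 0.16, adjusted p = 8.1e-11), and Fscn1, an actin-bundling protein of mature dendritic cells, had 102, 121, 82.7 and 103 with PBS and 380.3, 308, 375 and 308 with LPS (log2 change 1.74, SE 0.12, adjusted p = 1.4e-12). Both groups of values were clear of each other. Il15ra rose by 1.81 and Cd40 by 1.06, and Cd86 and Cd83 did not pass (0.36 and 0.08).

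B cell markers fell in 18 of 24 tested genes and rose in none, with a median log2 change of -0.83. Fcer2a, or CD23, at chr8:3681737-3694175, had signals of 140.5, 141, 132 and 95.7 with PBS and 14.2, 22, 4.71 and 16.2 with LPS, a mean 8.90-fold lower (log2 change -3.22, SE 0.27, adjusted p = 8.6e-11). Cr2, complement receptor CD21, had 136, 137, 118 and 136 with PBS and 36.4, 62.3, 25.1 and 30.7 with LPS (log2 change -1.82, SE 0.21, adjusted p = 5.8e-08), and Cd79a had 516, 588, 521 and 554 with PBS and 180.4, 291, 159 and 139 with LPS (log2 change -1.56, SE 0.14, adjusted p = 3.1e-10). Mouse 6 had the highest signal of the LPS mice for each of these 3. Ms4a1 (CD20) fell as well (log2 change -1.36). The transcription factors that define the lineage did not pass. Pax5 had 151 to 213 with PBS and 128 to 209 with LPS (-0.26, adjusted p = 0.24, 0.0275 without mouse 6, and 0.0169 without mice 5 and 6, at -0.50), and Ebf1 had 124 to 164 with PBS and 119 to 140.4 with LPS (-0.08, adjusted p = 0.75). Of the 9 marginal zone B cell genes 5 fell, with Asb2 and Cd1d1 at -1.60 and -1.13. Of 10 plasmablast and plasma cell genes tested, 2 fell and 8 did not pass, with a median log2 change of -0.09. Immunoglobulin transcripts, chosen after their values were seen, were lower. Igkc had 8450.4, 6179, 6536 and 5288 with PBS and 3175, 3567, 3198 and 2409 with LPS (log2 change -1.09, SE 0.15, adjusted p = 1.6e-06), Ighm changed by -0.85, and Jchain, the joining chain of polymeric IgM and IgA, by -1.37.

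T cell markers fell in 16 of 24 and rose in 1, with a median log2 change of -1.0. Cd3d, a chain of the T cell receptor complex, had signals of 82.8, 93.8, 90.2 and 87.3 with PBS and 49.8, 47.7, 25.1 and 27.0 with LPS (log2 change -1.29, SE 0.19, adjusted p = 7.0e-06). Cd4 had 51.8, 43.5, 47.3 and 41.0 with PBS and 21.3, 22, 20.4 and 14.4 with LPS (log2 change -1.20, SE 0.22, adjusted p = 1.7e-04), and Cd8b1 had 50.3, 75.4, 67.7 and 62.0 with PBS and 29.3, 18.3, 28.3 and 28.9 with LPS (log2 change -1.26, SE 0.22, adjusted p = 4.9e-05). The groups did not overlap for these 3 genes. Trbc2, a T cell receptor constant region chosen after its values were seen, fell (log2 change -0.94). The gene that rose was Ccr7, which guides T cells and dendritic cells and is also on the maturation list. Il7r, the interleukin-7 receptor chain, did not pass (-0.24). Of NK cell and cytotoxic genes, Gzmb, granzyme B, rose, with 14.8, 16.7, 14.0 and 20.0 with PBS and 109, 62.3, 109.9 and 93.8 with LPS (log2 change 2.43, SE 0.18, adjusted p = 2.5e-12), and Klrd1, the receptor CD94, fell, with 44.4, 26.8, 37.6 and 31.5 with PBS and 9.77, 18.3, 4.71 and 1.80 with LPS (log2 change -2.22, SE 0.41, adjusted p = 1.4e-04). Il2rb and Gzma did not pass (-0.05 and 0.36).

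Stromal genes of the spleen fell in 11 of 23 and rose in 1. Tcf21 at chr10:22817281-22820174 had signals of 109, 87.1, 132 and 104 with PBS and 15.1, 28.1, 6.28 and 16.2 with LPS (log2 change -2.79, SE 0.27, adjusted p = 1.6e-09). Acta2, smooth muscle actin, had 213, 213, 208 and 179 with PBS and 74.6, 99.0, 81.6 and 70.3 with LPS (log2 change -1.32, SE 0.14, adjusted p = 1.9e-08), and Mfge8, an opsonin of follicular dendritic cells and their neighbours, had 704, 625, 630.4 and 625 with PBS and 300.3, 328, 342 and 290.3 with LPS (log2 change -1.03, SE 0.09, adjusted p = 4.8e-10). All LPS libraries were below all PBS libraries for these 3, which the rule for naming required of Tcf21. The collagen gene Col3a1 and the fibroblast receptor gene Pdgfra did not pass (-0.17 and -0.11). Of 17 tested endothelial genes, 3 were higher and 4 lower, against 7.92% and 7.77% over all genes. Their summed signal was 2664 to 3041 with PBS and 3074 to 3221 with LPS. Stab2, a hyaluronan and debris receptor of sinus endothelium, fell (log2 change -2.39). Plvap, the diaphragm protein of fenestrae, fell (log2 change -0.94), and Ly6c1 rose by 1.11. Among 11 tested endothelial activation genes, 3 rose and 1 fell. Procr, the protein C receptor, rose by 1.66, with 10.4, 26.8, 10.7 and 13.7 with PBS and 60.4, 35.4, 61.2 and 37.9 with LPS. Selp, P-selectin, with 5.02 to 12.6 with PBS and 3.67 to 10.8 with LPS, did not pass (-0.29).

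Genes of ribosome biogenesis rose in 14 of 18 and fell in none, with a median log2 change of 0.86. Ncl, nucleolin, had signals of 121, 116, 126 and 116 with PBS and 392, 260.4, 347 and 337 with LPS (log2 change 1.46, SE 0.12, adjusted p = 5.1e-11), and Fbl, the methyltransferase fibrillarin, rose by 0.99. Myc, a transcription factor that drives such genes, had 97.6, 92.1, 84.8 and 123 with PBS and 197, 149, 276 and 274 with LPS (log2 change 1.13, SE 0.15, adjusted p = 1.1e-06). Glycolysis and hypoxia genes rose in 11 of 22 and fell in none. Pkm, pyruvate kinase, had 238, 255, 263 and 234 with PBS and 571, 418, 661 and 518 with LPS (log2 change 1.11, SE 0.11, adjusted p = 2.3e-09), and Pfkfb3, Ldha and Hif1a rose by 1.28, 0.70 and 1.09. Aldoa and the glucose transporter gene Slc2a1 did not pass (0.15 and 0.16). Respiratory chain subunits rose in 6 of 29, with a median of 0.15. The counts for biogenesis, glycolysis and respiration were 9, 5 and 2 with the pancreatic covariate.

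Genes responsive to glucocorticoids, and metallothioneins, rose in 12 of 18 and fell in none. Mt2, a metal-binding metallothionein, had signals of 364, 327, 343 and 339 with PBS and 1247, 808, 1419 and 1233 with LPS (log2 change 1.75, SE 0.11, adjusted p = 2.0e-13), and Fkbp5, a co-chaperone of the glucocorticoid receptor, had 146, 136, 104 and 123 with PBS and 238, 233, 217 and 193 with LPS (log2 change 0.79, SE 0.12, adjusted p = 1.1e-05). Dusp1, a phosphatase of MAP kinases, rose by 1.60. Tsc22d3, also known as GILZ, and Sgk1 did not pass (-0.11 and -0.07). Acute-phase genes rose in 9 of 19, led by Serpina3f, Timp1 (2.55) and Serpina3g (2.23). Saa3, the serum amyloid made outside the liver, had 458, 417, 427 and 437 with PBS and 849, 1050.0, 791 and 824 with LPS (log2 change 1.00, SE 0.09, adjusted p = 4.2e-10), while Saa1 and Saa2 did not pass (0.12 and 0.15) nor did the fibrinogen chain Fgb (0.28), which passed without mice 5 and 6 (0.45, adjusted p = 0.0385). Hepatocyte genes were present in all libraries. Their summed signal was 901 to 979 with PBS and 1017 to 1181 with LPS, and Alb, the only one of 14 that passed, rose by 0.31 and was chosen after its values were seen. The part of such transcripts in the acute-phase values was not tested.

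Of genes for lytic cell death, 4 of 11 rose. Casp4, which encodes the caspase that binds LPS in the cytosol, had signals of 25.1, 21.8, 18.3 and 12.6 with PBS and 63.1, 50.1, 76.9 and 50.5 with LPS (log2 change 1.60, SE 0.21, adjusted p = 4.4e-07), and Zbp1 is described above. Casp1 and Ripk3 did not pass (0.02 and -0.27). The p53 target and apoptosis list had 9 of 24 members higher, among them Cdkn1a, a cell cycle inhibitor (1.32), and the count was 5 without mouse 5. Cell cycle genes were called near the share of all genes, with 3 of 33 higher and 1 lower, and Ccnd2 and Mcm6 rose (0.96 and 0.78). Mki67 and Top2a did not pass (0.03 and -0.005), and Pcna was highest in mouse 4 (105, 85.4, 119 and 185 in the PBS libraries). Erythroid genes were called lower in 6 of 29, a count that ran from 1 without mouse 4 to 10 without mouse 1 or 2, and was 15 with edgeR on the recovered counts. Inhibitory receptors and ligands rose in 5 of 8, with Lgals9, galectin-9, at 1.09 and Cd200 at 1.03.

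The spleen change was set against that of the inguinal lymph node and the bone marrow of the same 8 mice, each by a test of the difference of changes over the 13390 genes. The change was higher in spleen for 258 genes (1.93%) and lower for 332 (2.48%) relative to lymph node, 4.41% together. It was higher for 560 (4.18%) and lower for 653 (4.88%) relative to bone marrow, 9.06% together. Both tests share the spleen libraries, and neither had a term for mouse. The counts with mouse as a replicate block are given at the end. Leaving out 1 mouse gave as few as 169 higher (without mouse 8) and 219 lower genes (without mouse 1) against lymph node.

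Interferon-stimulated genes changed less in spleen than in lymph node for 30 of 38 members, and less than in bone marrow for 22, with 1 in the other direction. Their median log2 change was 1.30 in spleen, 2.42 in lymph node and 2.16 in bone marrow. Ifit3, a member of the same family as Ifit1, had lymph node signals of 61.0, 59.4, 41.6 and 69.5 with PBS and 839, 1329, 698 and 938 with LPS. It changed by 1.74 in spleen and 4.00 in lymph node (difference -2.26, SE 0.24, adjusted p = 3.1e-07), and by 2.81 in bone marrow (difference -1.07, SE 0.23, adjusted p = 0.002). Isg15 gave differences in the same direction (difference -1.22, SE 0.21, adjusted p = 2.7e-04 against lymph node and difference -0.59, SE 0.19, adjusted p = 0.044 against bone marrow). The bone marrow count was 14 without mouse 8 and 27 without mouse 6. Of the GTPases, 6 of 17 rose less than in lymph node and 10 less than in bone marrow. The first count was 3 without mouse 3 or 8, and the second ran from 7 without mouse 8 to 14 without mouse 6.

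The change of red pulp macrophage genes was lower in spleen than in lymph node for 7 of 21 members (11 with mouse as a replicate block) and lower than in bone marrow for 6. Cd163 had lymph node signals of 2.88, 3.13, 1.48 and 2.54 with PBS and 4.53, 2.65, 2.17 and 1.49 with LPS, low in both groups, so its difference (difference -3.05, SE 0.64, adjusted p = 0.0032) set a fall in spleen beside little signal in lymph node. Slc40a1 fell in all 3 tissues, with log2 changes of -3.50 in spleen, -2.08 in lymph node and -2.46 in bone marrow, and fell further in spleen than in bone marrow (difference -1.04, SE 0.24, adjusted p = 0.0046) and lymph node (difference -1.42, SE 0.39, adjusted p = 0.028). Ccr3 was near the floor in lymph node and had bone marrow signals of 36.1, 37.7, 35.8 and 32.3 with PBS and 6.03, 14.9, 6.61 and 8.09 with LPS. Its change in spleen differed from that in lymph node, which was 0.03 and did not pass (difference -3.28, SE 0.71, adjusted p = 0.0042), and the difference from bone marrow did not pass (difference -1.29, SE 0.64, adjusted p = 0.23). Star and Apol7c, which fell in spleen, changed by 0.53 and 0.43 in bone marrow (difference -3.46, SE 0.50, adjusted p = 1.3e-05 and difference -3.33, SE 0.60, adjusted p = 2.9e-04).

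The change of class II genes was lower in spleen than in lymph node for 6 of 10 members and lower than in bone marrow for all 10. The class II count against lymph node was 4 without mouse 1, 2, 3, 5 or 7 and 5 without mouse 4. Against bone marrow it was 8 without mouse 3. H2-Aa changed by -1.18 in spleen, -0.47 in lymph node and 0.12 in bone marrow (difference -0.72, SE 0.15, adjusted p = 0.0028 and difference -1.30, SE 0.14, adjusted p = 1.2e-07). The change was lower for 6 of 24 B cell markers against lymph node and for 12 against bone marrow. It was lower for 7 of 24 T cell markers against each tissue. It was higher for 1 against bone marrow, where 4.18% of all genes were higher. For T cell markers the lymph node count was 3 without mouse 1, 2 or 8 and 4 without mouse 7, and the bone marrow count was 4 without mouse 3, 4 or 8. Cd79a changed by -0.73 in lymph node and -0.18 in bone marrow.

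Neutrophil genes did not move the same way in bone marrow, where neutrophils are made. The median log2 change of the list was 1.00 in spleen, 0.18 in lymph node and -0.54 in bone marrow. The change was higher in spleen than in bone marrow for 15 of 23 genes and higher than in lymph node for 5. In bone marrow 9 members fell and 4 rose. Retnlg, a resistin-like secreted protein, had bone marrow signals of 1845, 1509.5, 1738 and 1952 with PBS and 342, 549, 341 and 326 with LPS and spleen signals of 62.1, 43.5, 34.4 and 45.2 with PBS and 105, 169, 55.0 and 57.7 with LPS (difference 3.12, SE 0.32, adjusted p = 4.7e-08). It fell in all LPS mice in bone marrow and rose in spleen, though the spleen call was lost with the pancreatic covariate (0.08, adjusted p = 0.92) and without mice 5 and 6 (0.31, adjusted p = 0.306). Mmp8 changed by 2.06 in spleen and -1.05 in bone marrow (difference 3.11, SE 0.28, adjusted p = 4.2e-09). Ly6g, which did not pass in spleen, fell (log2 change -3.04) in bone marrow (difference 3.71, SE 0.67, adjusted p = 2.9e-04). For cell cycle genes the change was higher in spleen than in bone marrow for 9 of 33 members. Of the 33, 10 fell and 1 rose in bone marrow (median log2 change -0.37). In spleen 1 fell and 3 rose (median -0.16).

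Other genes with the largest differences between tissues are listed by value. Selp rose by 2.52 in lymph node and did not pass in spleen (difference -2.82, SE 0.51, adjusted p = 5.5e-04). Rab7b, a small GTPase of late endosomes, changed by -1.88 in spleen and by 1.88 in bone marrow (difference -3.76, SE 0.43, adjusted p = 3.8e-07). Tfpi2, a protease inhibitor, rose by 3.45 in bone marrow and did not pass in spleen (difference -3.78, SE 0.61, adjusted p = 7.5e-05). Its spleen signals with LPS were 6.11 in mouse 6 and 1.57 to 1.8 in the others. These rest on few counts, so a change in spleen was hardly detectable. Ccl5 rose more in spleen than in lymph node (difference 1.54, SE 0.20, adjusted p = 5.6e-06) and less than in bone marrow (difference -0.81, SE 0.20, adjusted p = 0.007). Aadat and Keg1, genes known from kidney and liver, gave the largest positive differences against lymph node apart from the amylases. Their lymph node signals were 29.9, 24.6, 90.6 and 120.3 with PBS and 4.53, 3.78, 6.08 and 4.48 with LPS and 35.7, 32.2, 83.1 and 129.6 with PBS and 4.12, 3.78, 8.26 and 2.99 with LPS, so the high values were those of the lymph node libraries of the PBS mice, and neither gene passed in spleen (0.67 and 0.45).

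**Figure D5:**
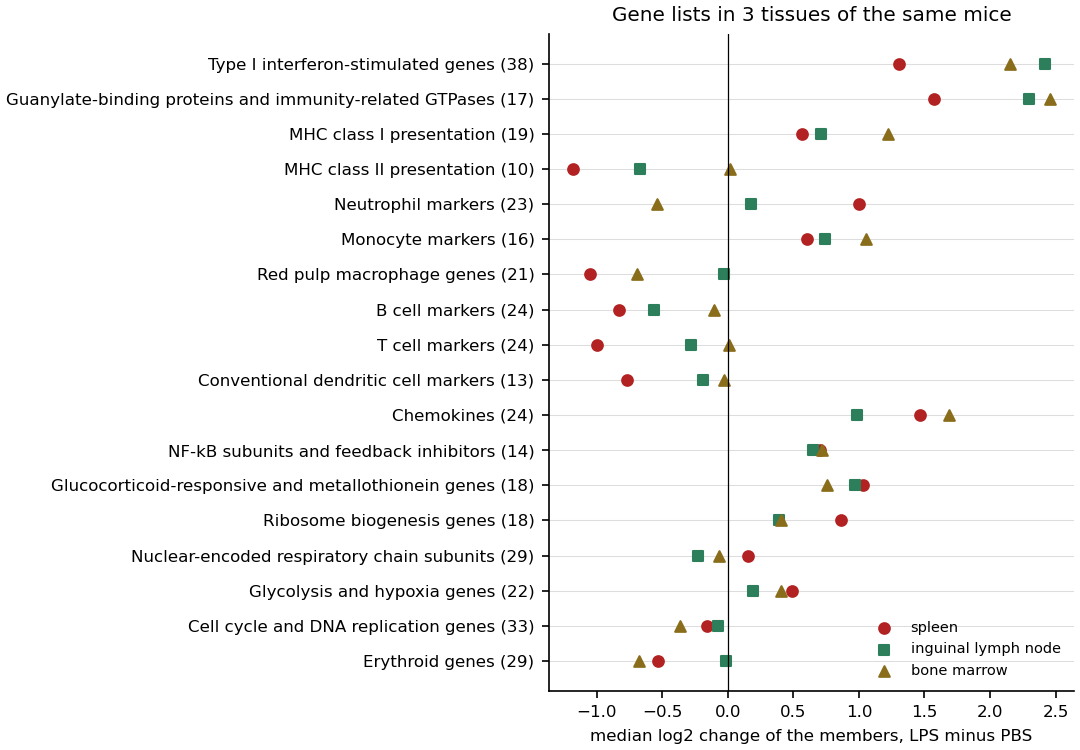
Median log2 change (LPS minus PBS, horizontal axis) of the tested members of 18 gene lists in spleen (red circles), inguinal lymph node (green squares) and bone marrow (brown triangles) of the same mice, with the number of members in brackets. Interferon-stimulated genes lie at 1.30 in spleen, 2.42 in lymph node and 2.16 in bone marrow, class II genes lie lowest in spleen, and neutrophil markers lie above 0 in spleen and below 0 in bone marrow.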

How the data were processed

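RNA of 12 spleens (4 per group) was measured by oligo(dT)-primed sequencing with a sample barcode and a 10-bp molecular identifier, per the labels' protocols. Whether the identifiers were collapsed and the aligner are not given in the sources used here. The submitters' processing notes name FastQC, MultiQC, edgeR and the mm10 build. The deposited signal values were scaled by the authors to sums of 766785 to 811015 in the 8 wild-type libraries, and all values (100%) were whole multiples, within 0.1 counts, of the value of 1 count. A value of 0 allows up to 3 counts, a signal of 2.67 to 5.41, and covers counting error only.

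The 5 metadata rows were skipped, no column lacked a sample, and 106 symbols were read with hyphens for dots. GENCODE M21 (GRCm38) held 13555 of the 13820 symbols. Genes that reached a signal of 1 in 4 or more libraries (of 12) were fitted with limma 3.58.1 (trend) in R 4.3.3 on log2(signal + 1), with 9 residual degrees of freedom. The labels name separate mice. All 12 pairs of replicates differed by more than counting error (lowest chi-squared per degree of freedom 1.35). The scripts were tested on simulated data.

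Each tissue difference used 24 libraries in a fit of its own, with the TNF-deficient mice in the estimate of the spread. The main fits had no term for mouse, so they treated libraries of the same mouse as independent. Spleen, lymph node and bone marrow came from the same animals, so mouse numbers pair the samples by design. Deviations from the group means of the same mouse correlated at 0.0372 to 0.411 between spleen and lymph node and at -0.0491 to 0.266 between spleen and bone marrow.

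The rule for named genes took the 15 largest eligible changes in each direction, up to 5 members per list, members that moved against their list, a set of defining genes, and 4 genes per direction and tissue difference. Eligible genes passed the test, had a mean signal of at least 10 in the higher group and had groups that did not overlap. Predicted, ribosomal, mitochondrial and antigen receptor genes were not eligible. Other named list members, passing or not, and the immunoglobulin, T cell receptor and amylase genes, were chosen after their values were seen. The members, the 49 lists and the tests were chosen with earlier results of these data known. Alternatives were a pseudocount of 0.25, no filter, median-of-ratios scaling, a fit of the 2 groups, the summed pancreatic signal as a covariate, each mouse left out, mouse as a block for the tissue differences, and the recovered counts in edgeR 4.0.16 and DESeq2 1.42.0. Leaving out mice 5 and 6 together, and list counts with 1 mouse left out, were added after seeing the data.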

Additional observations from a re-analysis of the deposited data

Results flagged for a closer look

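Pancreatic acinar genes lie outside the comparison and were above the PBS level in the LPS libraries, with a highest summed signal of 1110 in mouse 5.

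A single library lay far from the other 3 of its group in 21 of 474 groups checked (genes named here and summed lists), where chance gives about 1 in 20. Among LPS libraries, mouse 6 was the lowest for Serpina3f (56.2, others 201 to 254), for Cd8b1 (18.3, others 28.3 to 29.3) and for the summed guanylate-binding proteins and immunity-related GTPases (2169, others 3033 to 3136), and the highest for Tfpi2 (6.11). Mouse 7 was the highest for Dusp1 (217) and the lowest for Ccr3 (0, others 2.67 to 3.67). A value of 0 in that library allows a signal of up to 4.71, so this flag for Ccr3 is within counting error. Mouse 8 was the highest for Col3a1 (133) and the lowest for summed endothelial activation genes (449), and mouse 5 was the highest for Pcna (144).

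Among PBS libraries, mouse 4 was the lowest for Acta2 (179), Fcer2a (95.7) and Nfkb1 (142) and the highest for C1qb (225) and Cd83 (92.5). Mouse 3 was the lowest for Cr2 (118) and the highest for H2-Ob (233). Mouse 1 was the highest for Mfge8 (704), Timp1 (20.7) and Il6 (1.48), which is a single count beside values of 0. Mouse 2 was the highest for Fcgr4 (51.9) and the lowest for the summed glucocorticoid-responsive genes (2410).

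The LPS change differed most between tissues, by the test of the difference, for these genes. Spleen minus lymph node was 4.19 for Amy2a3 and Amy2a4, 3.93 for Aadat, 3.91 for Keg1, -3.28 for Ccr3, -3.05 for Cd163, -2.82 for Selp and -2.78 for Star on the log2 scale. Spleen minus bone marrow was 4.09 for Amy2a3 and Amy2a4, 3.71 for Ly6g, 3.12 for Retnlg, -3.78 for Tfpi2, -3.76 for Rab7b, -3.46 for Star and -3.33 for Apol7c.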

How the results depend on the processing

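Of 188 genes named here, 165 kept their side of the threshold under each of the 16 alternatives that tested them, and their direction where they passed. A change of sign in a gene that passed in neither fit was not counted. DESeq2 gave no adjusted p for Tfpi2 and Gbp11. With the pancreatic covariate, which itself separates the groups, 580 genes were higher, and B2m (0.22, adjusted p = 0.281) and Alb (0.28, adjusted p = 0.211) did not pass. Timd4, S1pr1 and Gpr183 did not pass either (adjusted p = 0.0761, 0.0558 and 0.0703), but their log2 changes of -1.03, -0.77 and -1.28 were close to or beyond those without the covariate. Ifi27l2a reversed, at -0.53 with that covariate and -0.34 without mice 5 and 6. With DESeq2, 667 genes were lower and Ccr2 did not pass (adjusted p = 0.0675), with a log2 change of -1.43 that differed little from that of limma. Ccl19 passed with neither DESeq2 nor edgeR (adjusted p = 0.121 and 0.0514), and H2-D1 passed with both (adjusted p = 0.0363 and 0.0215). With edgeR, 15 erythroid genes and 1 mesothelial gene were lower, against 6 and 0. Leaving out 1 mouse, or mice 5 and 6, gave 869 to 1077 genes higher and 801 to 1153 lower. For the tissue differences it gave 169 to 244 higher and 219 to 316 lower against lymph node, and 394 to 548 higher and 463 to 706 lower against bone marrow. With mouse as a replicate block the counts were 322 higher and 433 lower against lymph node, and 574 higher and 702 lower against bone marrow, and it changed no call printed for a single gene's tissue difference. The cause of these shifts was not tested. Leaving out libraries over 10 times the highest PBS pancreatic signal was not run, because none was. A signal of a few units rests on few counts, so changes of such genes were hardly detectable at this depth.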
